A study of Drosophila melanogaster with 2 samples.

Results

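Transfer RNA (tRNA) genes encode the adaptor RNAs that carry amino acids to the ribosome. They are transcribed by RNA polymerase III from a promoter inside the gene, whose A box and B box are bound by the factor TFIIIC, which in turn brings TFIIIB to the DNA just upstream. The genes occur in many near-identical copies, singly or in clusters, and serve every cell. Pleiohomeotic (Pho) is a DNA-binding Polycomb group protein, and its binding motif contains the core GCCAT. With earlier results of these data known, members were set by annotation: all genes of biotype tRNA on the nuclear chromosome arms of the dm6 build. This gave 290 of the 312 annotated tRNA genes, the other 22 being mitochondrial. They fall into 22 isotypes, that is amino acid classes, with initiator methionine and selenocysteine counted apart, and 44 anticodons.

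The measurement was chromatin immunoprecipitation with sequencing on whole embryos of both sexes, 0 to 24 h old. The embryos came from a transgenic line that stably expresses Pho carrying GFP at its C terminus, and an antibody against GFP was used. The single group had 2 biological replicates, numbered 3 and 4, and no second genotype, treatment or time. No library of untagged embryos was used here, so binding of tagged Pho and precipitation of these loci for other reasons cannot be told apart. Since whole embryos were used, a signal present in few cells and a weak signal in many cannot be told apart either.

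The files are lists of peaks, each with a summit (the base of highest signal) and a signal value from the authors' peak caller, used here to rank peaks within a list. The optimal list, kept by the authors' threshold on reproducibility, held 4293 peaks. The pooled list, called on reads of the replicates together, and the list of each replicate held 30000 entries each and are relaxed, so most entries are weak. All 4293 optimal peaks are the strongest entries of the pooled list. The lists carry no read counts, so depth cannot be given. A tRNA gene was counted when a summit lay within 500 bp of its 5' end. As background the same 290 positions were moved by each of 20 fixed offsets, 5 to 50 kb to either side, and counted in the same way.

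The genes whose sequences are shown are those nearest to an optimal summit that had no protein-coding start within 1000 bp, 3 of the 5 such cases, each with a gene of the same isotype that had no pooled entry. Capitals mark the A box, which begins at base 8 in each, and the B box GTTCNANNC, which begins at base 52 or 53. The form of the A box searched was widened after a stricter one was seen to match a minority of genes. Sequences are RefSeq's for release 6, 5' to 3' on the gene's own strand.
tRNA:Gln-TTG-2-1 (chrX:3427452-3427523, minus strand, near an optimal summit): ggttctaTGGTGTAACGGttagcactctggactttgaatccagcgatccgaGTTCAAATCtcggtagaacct
tRNA:Gln-CTG-2-2 (chr2L:2009155-2009226, plus strand, no pooled entry): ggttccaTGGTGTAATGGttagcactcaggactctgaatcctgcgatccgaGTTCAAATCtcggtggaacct
tRNA:Val-CAC-1-1 (chr3R:17617761-17617833, plus strand, near an optimal summit): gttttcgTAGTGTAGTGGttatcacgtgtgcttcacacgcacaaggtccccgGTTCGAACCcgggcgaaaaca
tRNA:Val-TAC-1-1 (chr3L:5356343-5356415, plus strand, no pooled entry): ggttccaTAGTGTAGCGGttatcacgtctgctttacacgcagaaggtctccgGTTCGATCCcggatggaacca
tRNA:Cys-GCA-1-3 (chr3L:3096369-3096440, plus strand, near an optimal summit): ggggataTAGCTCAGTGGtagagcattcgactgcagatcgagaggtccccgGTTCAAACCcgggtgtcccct
tRNA:Cys-GCA-2-1 (chr3L:1925641-1925712, plus strand, no pooled entry): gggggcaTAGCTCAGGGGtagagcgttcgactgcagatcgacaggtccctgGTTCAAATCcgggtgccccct
Both boxes were present in each of the 6 genes, whether or not an entry lay near. Over all 290 genes the A box was found in 92.8% and the B box in 93.4%. Genes with a pooled entry had the B box in 124 of 134 (92.5%), against 147 of 156 (94.2%) of those without.

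Strong peaks of tagged Pho were few at tRNA genes, and most entries near them were weak. Of the 290 genes, 20 had an optimal summit (6.90%, 95% Wilson interval 4.51 to 10.4), against 3.90% of shifted positions. Single offsets gave 3 to 23 genes with a median of 11.5, and 1 of the 20 offsets reached the count of the real positions, so the optimal count lies inside the range of its background. In the pooled list 134 genes had an entry (46.2%, interval 40.6 to 52.0), against 25.3% of shifted positions, and the 20 offsets gave 61 to 96 genes. The pooled count thus lies above every offset, at 1.82 times their mean. Protein-coding genes, counted at their own 5' ends, had an optimal summit in 21.1% of 13945 and a pooled entry in 53.7%. With offsets of 100 to 1000 kb, shifted positions had an optimal summit in 3.24% and a pooled entry in 20.6%. The intervals cover counting error only and treat genes as independent, although neighbours share entries, and no test was made over the genes.

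**Figure D1:**
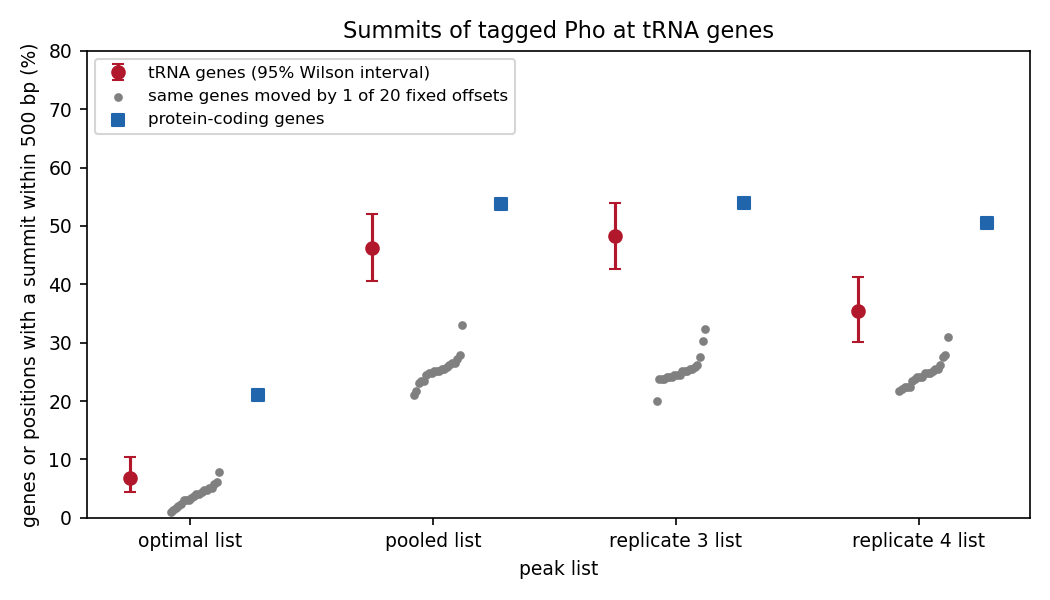
Share of tRNA genes (circles, 95% Wilson intervals), of the same positions moved by each of 20 fixed offsets (grey points) and of protein-coding genes (squares) with a summit within 500 bp, for each of the 4 peak lists. tRNA genes lie above all shifted positions in the pooled and both replicate lists, but in the optimal list 6.90% lies within the spread of the offsets.

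Shares at other genes for small RNAs varied. Of 269 snoRNA genes, which guide modification of other RNAs, 6.69% had an optimal summit and 35.3% a pooled entry. The 32 genes for small nuclear RNA (snRNA) had 18.8% (interval 8.89 to 35.3) and 53.1% (36.4 to 69.1). Both intervals overlap those of tRNA genes. None of 99 rRNA genes on these arms had an entry in any list. The Wilson upper bound of 3.74% treats these genes as independent, and how far they are neighbours or copies was not examined. tRNA genes were thus near snoRNA genes in the optimal list, where the intervals overlap (4.51 to 10.4 for tRNA genes, 4.27 to 10.3 for snoRNA genes). In the pooled list they stood at 46.2%, between snoRNA and snRNA genes, and the difference was not tested.

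The excess was present in each replicate but differed in size. In replicate 3, 140 genes (48.3%) had an entry, against 25.3% of shifted positions. In replicate 4, 103 genes (35.5%) did, against 24.7%. The 20 offsets gave 58 to 94 genes in replicate 3 and 63 to 90 in replicate 4, so both libraries exceeded their own range, by 1.91 times and 1.44 times the mean. Both replicates had an entry at 75 genes (25.9%), against 15.2% of shifted positions. At a gene these could be different sites, each within 500 bp, here and in the correlations below. A further 65 genes had an entry in replicate 3 alone, 28 in replicate 4 alone and 122 in neither. Over the 75 genes, which share 56 distinct summits in replicate 3, log2 signal values of the replicates had a Pearson correlation of 0.810, and a Spearman rho of 0.677 held for their ranks, both across genes and as a description. Among the 211 genes farther than 1000 bp from any protein-coding start, 97 had an entry in replicate 3 (46.0%) and 66 in replicate 4 (31.3%). Shifted positions equally far from such starts had one in 20.6% and 20.3%. When each replicate list was reduced to its own 4293 strongest entries, 22 genes remained in replicate 3 and 14 in replicate 4. These were 1.93 and 1.23 times the shifted mean.

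The excess was not held by the stronger entries of the pooled list. Taking the strongest entry within 500 bp of each gene, 20 genes fell in ranks 1 to 4293 (1.77 times the shifted mean) and 27 in ranks 4294 to 10000 (1.65 times). Another 46 fell in the ranks beyond 10000 up to 20000 (1.97 times) and 41 beyond 20000 (1.82 times). In the weaker ranks the counts exceed every offset, with at most 34 and 37 shifted positions. In ranks 4294 to 10000 offsets reached 39. The 115 distinct pooled entries at tRNA genes had a median signal value of 39.4, beside 38.8 over the whole pooled list. The 15 distinct optimal peaks had a median of 131, beside 145 over all optimal peaks.

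Summits of weak entries were most frequent between the tRNA 5' end and 300 bp upstream of it. Of the 115 pooled entries, 63 had their summit upstream of the nearest tRNA 5' end, 16 inside the gene and 36 downstream. By bins of 100 bp along the gene strand, with a summit counted once for each gene it is near, the pooled list had 23 summits in the bin centred 200 bp upstream and 23 in the bin at the 5' end, against shifted means of 8.65 and 8.55. Single bins farther out also exceeded every offset, among them that at 300 bp downstream, with 17 summits against a mean of 8.65 and at most 15. In the bins 300 and 200 bp upstream, replicate 3 had 18 and 25 summits and replicate 4 had 19 and 17, all above every offset. Closer in the replicates differed more, with 24 summits 100 bp upstream and 23 at the 5' end in replicate 3, where replicate 4 had 10 and 9, inside its shifted range. Within 100 bp of a tRNA 5' end lay 41 summits of replicate 3 and 19 of replicate 4, and none of the optimal list.

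**Figure D2:**
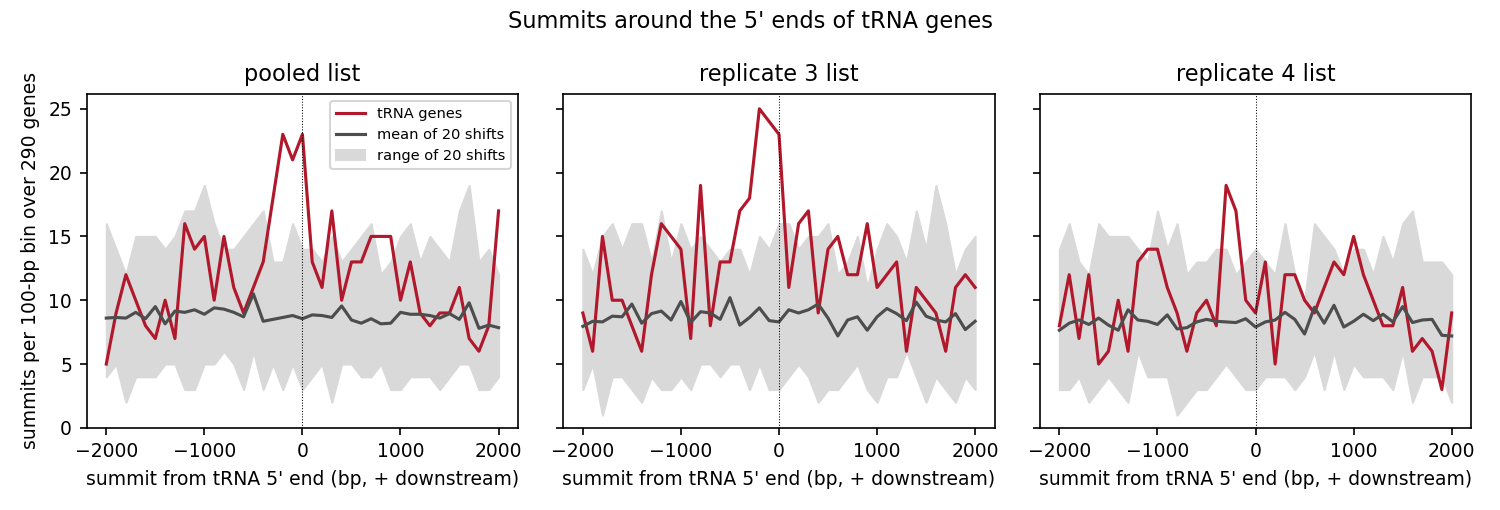
Summits per 100-bp bin by distance from the tRNA 5' end along the gene strand, summed over 290 genes (red), with the mean (dark line) and range (grey) over 20 fixed shifts. The pooled and replicate 3 lists rise to 23 or more summits close to the 5' end, while replicate 4 has 19 at 300 bp upstream and 9 at the 5' end.

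Protein-coding starts were close to many of the optimal peaks. Of the 290 tRNA genes, 79 had a protein-coding transcript start within 1000 bp, and 12 of these 79 had an optimal summit. Within 500 bp of such a start it was 9 of 32 (28.1%, interval 15.6 to 45.4), against 13.8% of shifted positions equally near, and none of the 20 offsets reached that share. From 500 to 1000 bp it was 3 of 47 (6.38%), against 3.98%, and 5 of 20 offsets reached it. Of the other 211 genes, 8 did (3.79%, interval 1.93 to 7.30), against 1.91% of shifted positions equally far from such starts, and 2 of 20 offsets reached that share. In the pooled list 91 of the 211 had an entry (43.1%, interval 36.6 to 49.9), against 20.6% of such shifted positions, and none of the 20 offsets reached that share. By distance, the pooled share of tRNA genes was 62.5% of 32 genes within 500 bp of a protein-coding start, where shifted positions had 43.7%. It was 48.9% of 47 genes from 500 to 1000 bp (shifted 32.3%), 49.5% of 101 genes from 1000 to 5000 bp (shifted 23.5%) and 37.3% of 110 genes farther away (shifted 17.4%). The distinct pooled entries themselves lay nearer to the tRNA 5' end than to any protein-coding start in 104 of 115 cases. Of the optimal peaks this held for 8 of 15.

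**Figure D3:**
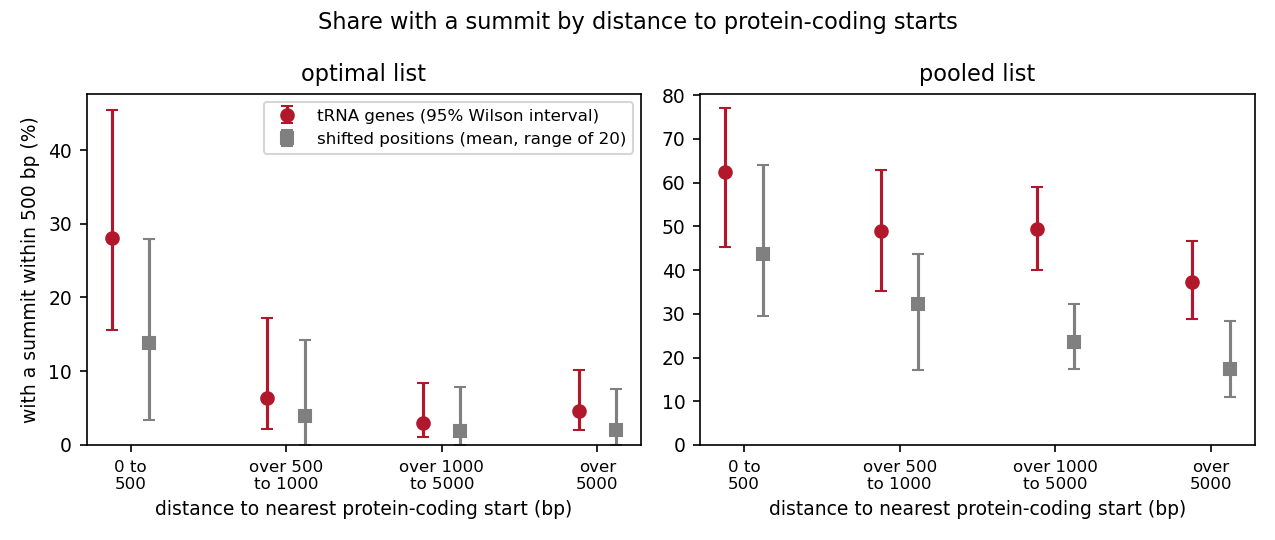
Share with a summit within 500 bp by distance to the nearest protein-coding start, for tRNA genes (circles, 95% Wilson intervals) and shifted positions (squares, mean and range over 20 offsets), in the optimal and pooled lists. In the pooled list tRNA genes beyond 1000 bp lie above the whole range of shifted positions (49.5% and 37.3%), while in the optimal list they lie inside that range beyond 500 bp and just above it, with 28.1%, within 500 bp.

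Of the 15 optimal peaks at tRNA genes, the strongest lay 193 bp upstream of tRNA:Tyr-GTA-1-8 (3R, 8669081 to 8669174, minus strand), a tyrosine tRNA gene within CG8036. Its signal value was 587 on pooled reads (rank 122), 397 in replicate 3 and 191 in replicate 4. The summit was 251 bp from a protein-coding start, farther than from the tRNA gene. The next peak, at tRNA:Phe-GAA-1-2 on X, had 366 on pooled reads, 218 in replicate 3 and 143 in replicate 4. It stood 75 bp from the start of RpL17, a ribosomal protein gene. The peak nearest to tRNA:Val-CAC-2-5 had 251 on pooled reads and stood 410 bp from a start of Naam, closer than to the tRNA gene (489 bp).

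Most of the remaining peaks beside protein-coding genes were closer to those than to the tRNA gene. The peak by tRNA:Asp-GTC-1-5 (233 on pooled reads) was 65 bp from a start of Sema1a, which encodes an axon guidance protein. That by tRNA:His-GTG-1-3 (218) was 94 bp from CG8490. The peak by tRNA:Gly-GCC-1-13 (131) was 106 bp from tud, a germ plasm gene, and that by tRNA:Trp-CCA-2-2 (119) was 4 bp from CG30122. The peak by tRNA:Gly-TCC-1-1 (93.7) was 102 bp from CG31248. Those by tRNA:Thr-AGT-1-4 (101, 115 bp from the tRNA gene and 372 bp from CG31279) and tRNA:Ile-AAT-1-8 (93.1, 237 bp from it and 548 bp from ATP8A) were closer to the tRNA gene.

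The other 5 optimal peaks had no protein-coding start within 1000 bp. The strongest, in a group of glutamate and initiator methionine tRNA genes, was nearest to tRNA:Glu-TTC-1-5. It had 164 on pooled reads, 129 in replicate 3 and 32.5 in replicate 4, and its rank was 5606 in replicate 4 and 1092 in replicate 3. The peak between tRNA:Arg-CCT-1-2 and tRNA:Arg-CCT-1-3 had 148 on pooled reads, 96.2 in replicate 3 and 50.9 in replicate 4. The peak at tRNA:Gln-TTG-2-1, whose sequence is given above, had 131, 75.6 and 56.6 in the same order. At tRNA:Val-CAC-1-1 the values were 99.6, 62.2 and 41.3, and at tRNA:Cys-GCA-1-3 98.8, 63.9 and 33.9. These last peaks stood close to the weakest signal value of the optimal list, 91.9.

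**Figure D4:**
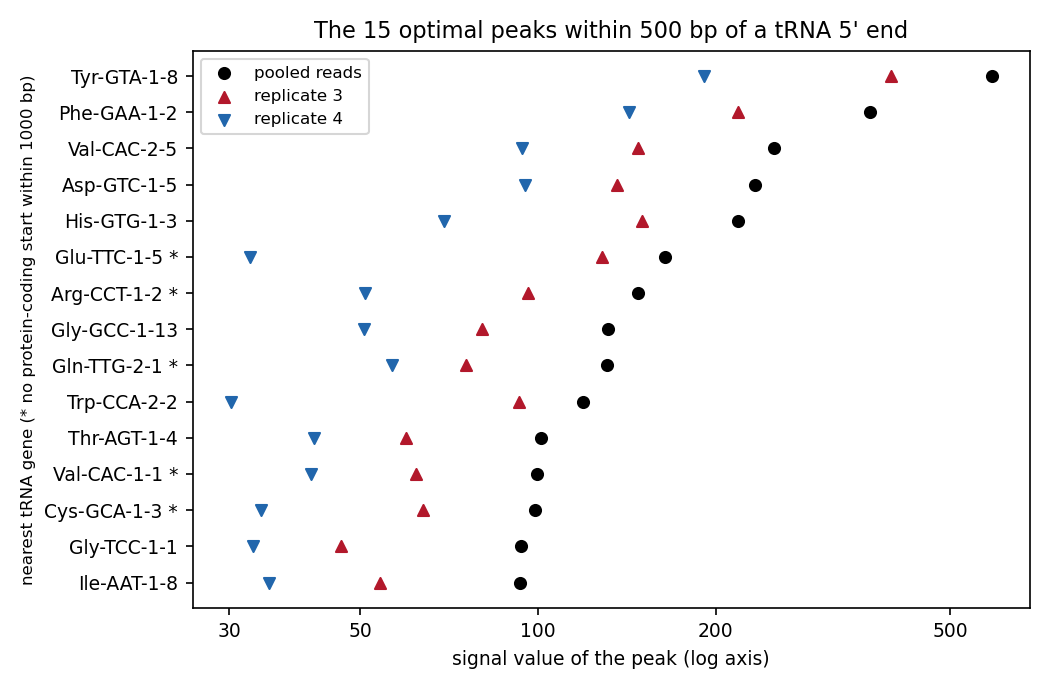
Signal value (log axis) on pooled reads, and in each replicate for the 15 optimal peaks at tRNA genes, named by the nearest tRNA gene. Asterisks mark the 5 with no protein-coding start within 1000 bp, of which the highest reaches 164 on pooled reads, against 587 at Tyr-GTA-1-8.

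The DNA under 4 of these summits is shown because it bears on whether the Pho core lies at them: the strongest peak and those at the 3 genes shown before, a choice made after their values were seen. Each is 101 bases of the plus strand centred on the summit, with GCCAT (in either orientation) in capitals.
At tRNA:Tyr-GTA-1-8 (chr3R:8669317-8669417): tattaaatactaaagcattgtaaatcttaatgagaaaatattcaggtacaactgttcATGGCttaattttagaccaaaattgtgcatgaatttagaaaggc
At tRNA:Gln-TTG-2-1 (chrX:3427640-3427740): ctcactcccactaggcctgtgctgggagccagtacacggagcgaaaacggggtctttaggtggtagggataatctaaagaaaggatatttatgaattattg
At tRNA:Val-CAC-1-1 (chr3R:17617363-17617463): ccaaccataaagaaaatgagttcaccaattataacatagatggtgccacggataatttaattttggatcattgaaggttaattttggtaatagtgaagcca
At tRNA:Cys-GCA-1-3 (chr3L:3096195-3096295): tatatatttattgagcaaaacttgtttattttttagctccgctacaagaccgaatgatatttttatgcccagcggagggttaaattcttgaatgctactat
The core was found in the window at tRNA:Tyr-GTA-1-8, and none of the other 3 windows held it. GCCAT, searched on both strands within 50 bp, lay at 4 of the 15 optimal summits at tRNA genes (26.7%, interval 10.9 to 52.0), against 15.8% of all 4293. Over pooled entries it lay at 17 of 115 (14.8%), against 18.9% of all 30000. No windows away from summits were searched, so these shares do not show how often so short a motif lies in any window. TATCGATA, the motif of the promoter factor DREF, lay at 1 of the 15, against 3.35% of all optimal summits, and at 2 of the 115, against 1.35% of all pooled entries. GGTCACACT, promoter motif 1, lay at none of the 15 or the 115, against 1.44% and 0.657% of all summits. The B box GTTCNANNC lay within 50 bp of 22 of the 115 (19.1%, interval 13.0 to 27.3), against 3.22% of all pooled entries. The search took entries near genes that hold this box, so its share says only how often the summit is close to the gene.

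Strong peaks were spread thinly over the isotypes. Optimal summits lay at genes of 14 of the 22 isotypes, with at most 2 genes each. The 8 isotypes without one were Ala, Asn, Leu, Met, Pro, Ser, SeC and iMet. In each of the 22 isotypes the lowest optimal count among the 20 offsets was 0, and the real count did not exceed the highest. Presence or absence of an optimal summit thus does not set any isotype apart from its background. In the pooled list every isotype had at least 1 gene with an entry, and 21 of 22 had a higher share than their shifted positions, the exception being Cys (28.6%, against 33.6%). In 14 isotypes the count lay within the range of the offsets, and in 8 it exceeded all 20. Among these 8 were Ser, with 11 of 20 genes and at most 9 shifted positions, and Leu, with 12 of 22 and at most 11. His had 4 of 5 genes and at most 2 shifted positions. Of the isotypes with 17 or more genes, Gly (6 of 20), Lys (6 of 19) and Arg (9 of 26) had the lowest shares. The remaining counts ran between 2 of 6 Met genes and 9 of 15 Val genes, apart from the single SeC gene.

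**Figure D5:**
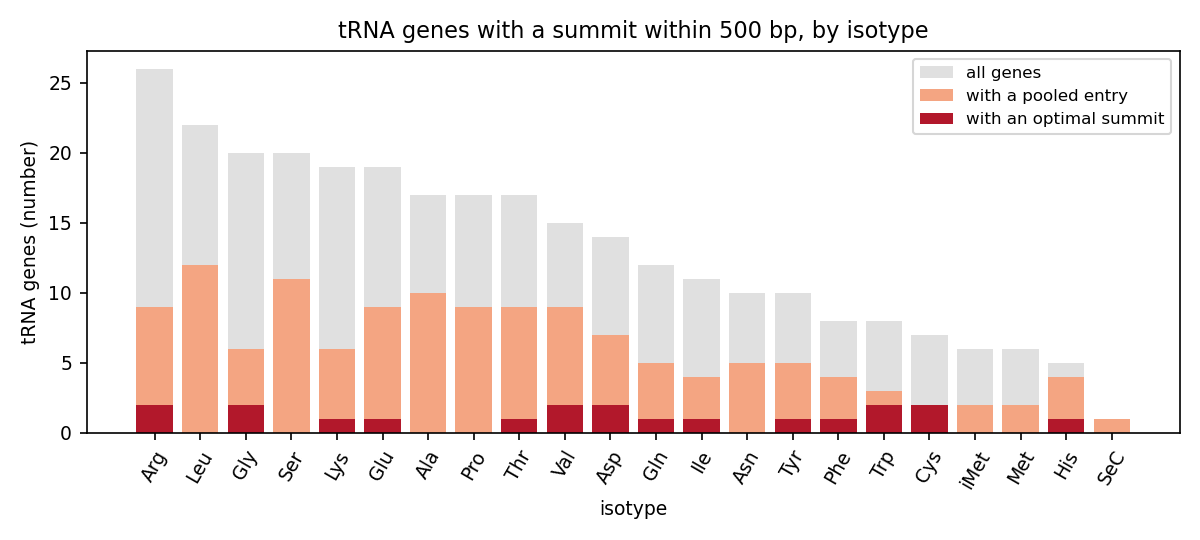
Number of tRNA genes per isotype (grey), with a pooled entry within 500 bp (orange) and with an optimal summit (red), all bars starting at 0. Optimal summits are spread over 14 isotypes with 1 or 2 genes each, while pooled entries reach 12 of 22 Leu genes.

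The initiator methionine and selenocysteine genes, which have unusual roles in translation, had weak entries or none. Initiator tRNA starts protein synthesis, and 2 of its 6 genes had a pooled entry (33.3%), against 20.8% of their shifted positions. The offsets gave 0 to 3 genes. The neighbours tRNA:iMet-CAT-1-4 and tRNA:iMet-CAT-1-5, within ome on 3L, shared 2 pooled entries. The signal value of the stronger was 46.8 in the pooled list (rank 11278), 20.9 in replicate 3 and 22.6 in replicate 4. The weaker had 25.3 in the pooled list and 22.0 in replicate 3, with no matching entry in replicate 4. A further pooled entry near tRNA:iMet-CAT-1-4 (28.3) had a matching entry in neither replicate. tRNA:iMet-CAT-1-1 and tRNA:iMet-CAT-1-2 shared an entry of replicate 3 alone (14.98). tRNA:iMet-CAT-1-3 had an entry in replicate 4 alone (15.5), and tRNA:iMet-CAT-2-1 had none in any list. The single selenocysteine gene, tRNA:SeC-TCA-1-1, had a pooled entry of 26.1 at rank 27849, close to the end of the list, and an entry in replicate 4 of 13.2.

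Genes in small clusters had entries more often than lone genes. Joined at gaps of at most 5000 bp, the 290 genes formed 144 groups, of which 76 held a single gene. A pooled entry lay at 24 of these 76 (31.6%), against 23.3% of their shifted positions, where offsets gave 13 to 22 genes. Of the 142 genes in groups of 2 to 4, 79 had one (55.6%), against 26.6%, with 26 to 51 shifted positions. Of the 72 genes in the 10 larger groups, 31 did (43.1%), with 9 to 36 shifted positions. That share lay above the shifted mean, but the count lay inside the range of the offsets. The counts of lone genes and of groups of 2 to 4 exceeded all offsets. Neighbours in a group can share an entry, and the differences between these classes were not tested. Optimal summits were spread evenly, at 6.58%, 7.04% and 6.94% of the genes of these classes, and 15 of the 144 groups had one.

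Large groups differed among themselves. The counts are of genes, which can share an entry, and no shifted share was taken for single groups. The group on 2R at 6161535 to 6171759, with 11 genes for Arg, Asn, Ile and Lys, had pooled entries at 9, entries of replicate 3 at 9 and of replicate 4 at 8, the strongest with a signal value of 59.4. The group on 3R at 17617761 to 17631750, also with 11 genes (Ala, Pro, Thr and Val), had pooled entries at 8 and replicate 3 entries at 8, but replicate 4 entries at 2. On X, a group of 7 Arg and Ser genes at 14014814 to 14017284 had none in any list. Among the remaining groups of 7, that of Ile and Leu genes on 2R (13430282 to 13432794) had a pooled entry at 1 gene and that of Glu and initiator genes (19725620 to 19728958) at 4. By arm, pooled entries lay at 54.1% of the 98 genes on 2R, against 26.4% of shifted positions, and at 48.1% of 79 on 3R, against 25.6%. They lay at 43.9% of 41 on 2L, against 27.7%, and at 33.3% of 48 on 3L, against 27.0%. On X, where shifted positions had the lowest share of the 5 arms (12.9%), it was 37.5% of 24. On 3L and X the counts did not exceed all offsets.

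Copy number and position in other genes differed little between genes with and without entries. The 290 genes have 95 distinct sequences, and 52 genes have no identical copy. Of those 52, 26 had a pooled entry, beside 47 of 103 with 1 to 4 identical others (45.6%) and 61 of 135 with more (45.2%). How the authors treated reads that match several copies is not given in the sources used here, and beyond these counts its part was not tested. Of the 134 tRNA genes lying inside a protein-coding gene 43.3% had a pooled entry, against 48.7% of the 156 outside, and the optimal shares were 6.72% and 7.05%.

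The distance of 500 bp bears on the count. The genes just inside it were tRNA:Trp-CCA-2-6 (467 bp from an optimal summit) and tRNA:Val-CAC-2-5 (489 bp), and those just outside were tRNA:Cys-GCA-1-1 (508 bp) and tRNA:Gly-GCC-1-9 (522 bp).

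Genes for the machinery that transcribes and processes tRNA included some of the strong peaks. Of 15 genes of RNA polymerase III and its factors, 6 had an optimal summit within 500 bp of the 5' end, beside 21.1% of all protein-coding genes. A pooled entry lay at 14 of them, beside 53.7% of all protein-coding genes. Bdp1, a TFIIIB subunit, had a signal value of 887 (rank 43), and Brf, another TFIIIB subunit, had 571 (rank 135). The polymerase subunit genes Polr3E (168) and Polr3F (112), the RNA chaperone gene La (210) and RNaseZ (190), which trims the 3' end of tRNA, had the other summits. The subunit gene Polr3K was the 1 gene of the 15 without a pooled entry.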

How the data were processed

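Peak lists of 2 replicate ChIP-seq libraries, of their pooled reads and an optimal list were used as deposited on dm6. Per the deposited texts, peaks were called against 1 control file and the optimal list was made from the replicate and pooled lists by an IDR threshold. Neither aligner nor caller, versions nor threshold is given in the sources used here. The deposited signal value ranked peaks within a list. The deposited −log10 q-value was at its maximum for 91.1% of optimal peaks and was not used for ranking. Lists on dm3 were not used here, since the annotation is on dm6. tRNA genes came from Ensembl release 115, and all 290 intervals matched RefSeq's.

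Summits were placed by the deposited offset from each peak's start, replicate values of a peak were taken from the replicate entry within 100 bp of its summit, and a gene's strongest entry within 500 bp gave its rank. The background was 20 fixed offsets, with no random draw, no test and no p-value. Shares have 95% Wilson intervals, for counting error alone. Alternatives changed the distance, the list, the reference point, the clusters and the offsets. Counting was checked on planted positions. Named genes were those nearest to the 15 optimal summits, all isotypes, the initiator and selenocysteine genes, the 5 largest groups, genes at the 500 bp limit and the RNA polymerase III list, of which 1 gene is not reported here. The members and lists were chosen with earlier results of these data known. Results on the pooled list, rank and copy classes, host genes, the A box form and the summit sequences were added or set after the data were seen. Python 3.11.15, pandas 2.3.3 and statsmodels 0.14.6 were used.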

Additional observations from a re-analysis of the deposited data

How the results depend on the processing

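Of 60 alternative values, 42 stayed close to the reported one (counts within 1.5 times, ratios within the spread between replicates). No ratio of tRNA genes to shifted positions turned below its background, while the counts were not compared with a background here. The 20 tRNA genes with an optimal summit became 9 at 250 bp, 35 at 1000 bp, 9 with the strongest 2146 peaks and 134 with the pooled list. With the same changes the 8 genes away from protein-coding starts became 4, 16, 3 and 91. They became 4 with the 4293 strongest entries of replicate 4 alone and 11 with those of replicate 3 alone. The 15 groups became 8 at 250 bp, 7 with the strongest peaks and 73 with the pooled list. The 2948 protein-coding genes became 1690 with the strongest peaks. The ratio of tRNA genes to shifted positions, 1.77 in the optimal list, was 1.23 with the 4293 strongest entries of replicate 4. With those of replicate 3 it was 1.93. In the pooled list, whose alternatives were chosen after seeing the data, 134 genes became 83 at 250 bp and 71 with the 15000 strongest entries, and the ratio of 1.82 was 1.44 in replicate 4, 1.91 in replicate 3 and 2.24 with offsets of 100 to 1000 kb. Read depth is unknown, so how it bears on the difference between replicates was not tested.
No paired analysis was possible because the study has 1 group and no result comes from a test.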
